A study of Drosophila melanogaster with 2 samples.

Results

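The vacuolar ATPase (V-ATPase) genes are the protein-coding genes of Drosophila melanogaster whose symbol begins with Vha, and 33 of the 13945 protein-coding genes annotated on the 6 chromosome arms matched. Binding at their transcription start sites (TSSs) was read from chromatin immunoprecipitation followed by sequencing (ChIP-seq) with an anti-GFP antibody. The flies were whole adults, males and females pooled and of unknown age, from 1 transgenic strain whose CG11617 protein carries GFP at its C terminus. There was 1 group of 2 biological replicates, numbered 2 and 3 by the labels, and both carry the transgene. The labels do not state what drives the fusion or whether the untagged gene is present. CG11617 encodes a homeodomain protein, a type of DNA-binding regulator. Because the chromatin came from whole bodies, strong binding in few cells and weak binding in many cannot be told apart.

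The V-ATPase is a rotary proton pump that acidifies lysosomes, endosomes and secretory vesicles, and in insects it also energises the apical membrane of transporting epithelia such as the Malpighian tubule. Its cytosolic V1 sector hydrolyses ATP and turns a central stalk. The membrane V0 sector carries protons past a ring of proteolipids that this stalk rotates. Most subunits are encoded by several genes in the fly, numbered or lettered as paralogs, some of which are known for narrow tissue expression.

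The measure for each gene was the highest deposited signal, the peak score in arbitrary units, among entries whose summit fell 500 bp or less from any of its TSSs. It was taken in each of 4 lists: the optimal set that passed the authors' filter for irreproducible discovery rate (IDR), the candidates of both replicates pooled, and the candidates of each replicate. The optimal set held 5777 entries with signals of 163 to 5197, and each candidate list held 30000. At every V-ATPase gene in the optimal set, the entry had the same signal and rank there as in the pooled list. No V-ATPase gene with a pooled signal above 163 was outside the set. Membership thus followed the pooled signal at these genes, and a member need not rank high in each replicate. Signals are not scaled between lists. The median was 24.0 in replicate 2 and 46.5 in replicate 3, so a signal of one replicate is not comparable in size with that of the other. The lists carry no read counts, and the depth is unknown. Candidate lists hold background as well as peaks, so an entry in them alone is not a called peak.

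An IDR summit was found at the start sites of 12 of the 33 V-ATPase genes (36.4%), beside 30.0% of all protein-coding genes. The share was near that background, so the count says little of the V-ATPase genes as a set. The 12 genes were Vha68-1, Vha68-2, Vha44, Vha36-1, Vha26 and Vha13 of V1, and Vha100-2, Vha16-1, Vha16-5, VhaAC39-1, VhaM9.7-a and VhaM9.7-b of V0. Their median signal was 292, against 309 over all 4178 genes with an IDR summit. A further 12 genes had weaker entries in the pooled list, which made 24 of 33 (72.7%) with any pooled entry, beside 61.6% of all genes. The candidate lists of replicate 2 and replicate 3 also held an entry at 24 of the 33 genes each, where the shares over all genes were 59.8% and 61.6%. No entry in any list lay at the start sites of 8 genes, and VhaPPA1-2 had 1 only in replicate 2 (signal 13.6).

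**Figure D1:**
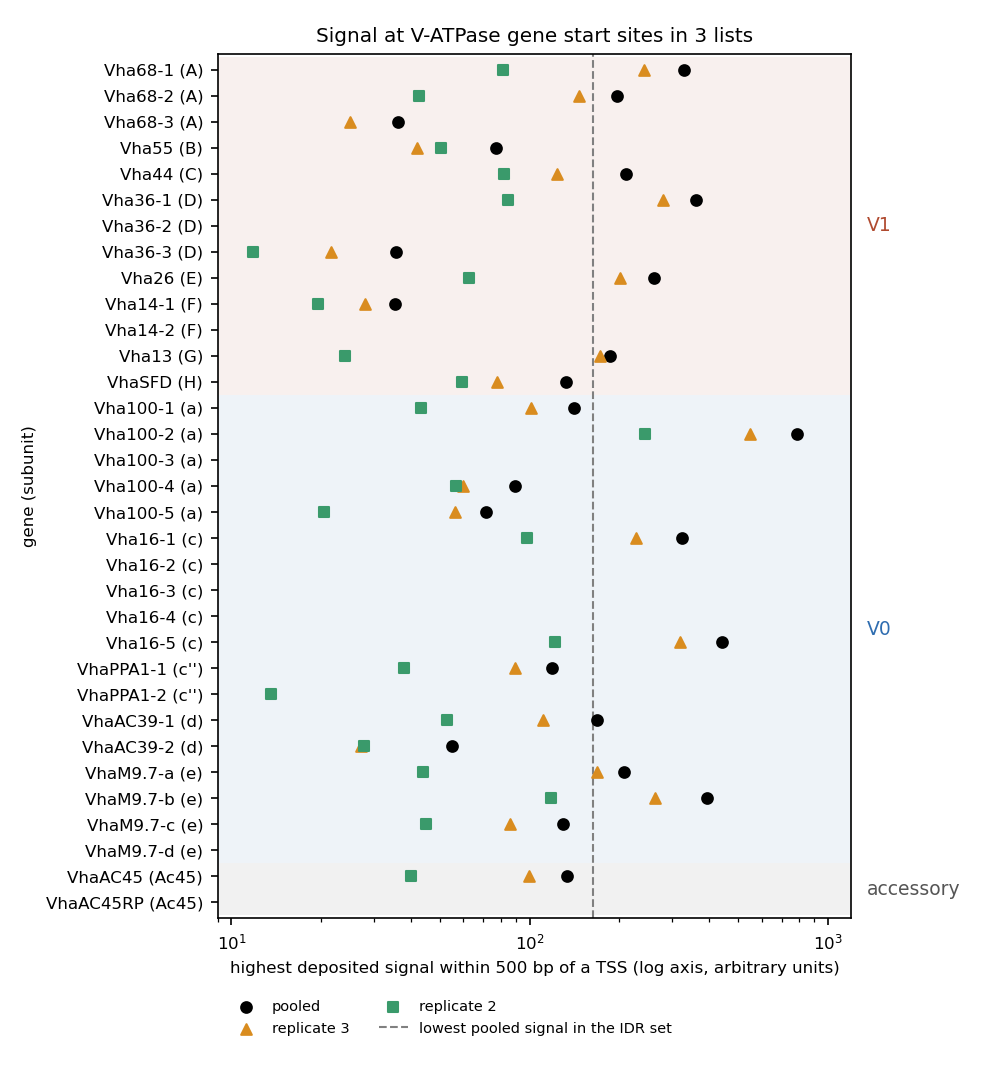
Highest signal near a TSS (x axis, log scale, arbitrary units) of each V-ATPase gene (y axis, with its subunit in brackets) in the pooled list, replicate 3 and replicate 2. Vha100-2 stands highest at 788 in the pooled list, the dashed line marks the lowest pooled signal in the IDR set (163), and rows without points had no entry.

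Sequences of 101 bp centred on the summit are shown for 5 of the bound genes, each free of annotated UTR, so that the shared starts can be compared. Vha68-1 shares its start region with the growth kinase gene mTor, Vha26 with noi, VhaM9.7-a with CG11586 and VhaM9.7-b with COX8, whereas Vha68-2 has no neighbouring start. They were read from the Release 6 genome (dm6) 5′ to 3′ on the gene's strand. Capitals mark a match, on either strand, to 1 of 10 promoter motifs, and a run without capitals holds none.

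Vha68-1 (chr2L:13004235-13004335, minus strand): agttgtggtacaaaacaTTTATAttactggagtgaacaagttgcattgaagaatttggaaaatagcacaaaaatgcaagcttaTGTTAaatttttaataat

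Vha68-2 (chr2L:12974145-12974245, plus strand): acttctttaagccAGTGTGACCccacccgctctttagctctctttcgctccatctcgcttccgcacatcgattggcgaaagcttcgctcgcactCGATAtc

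Vha26 (chr3R:5591507-5591607, plus strand): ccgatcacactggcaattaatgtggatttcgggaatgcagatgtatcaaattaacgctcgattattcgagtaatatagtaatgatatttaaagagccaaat

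VhaM9.7-a (chr3L:4262498-4262598, plus strand): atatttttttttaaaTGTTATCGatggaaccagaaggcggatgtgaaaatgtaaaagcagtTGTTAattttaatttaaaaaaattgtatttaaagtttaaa

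VhaM9.7-b (chr3L:21539537-21539637, plus strand): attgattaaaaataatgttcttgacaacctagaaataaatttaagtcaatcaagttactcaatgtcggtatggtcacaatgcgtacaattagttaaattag

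No motif was shared by all of them. Vha68-1 carried the reverse complements of TATAAA and TAACA, Vha68-2 carried GGTCACACT in reverse and CGATA, and VhaM9.7-a carried CGATA and TAACA, both in reverse. The windows of Vha26 and VhaM9.7-b held none of the 10.

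Within V1, 6 of 13 genes had an IDR summit (46.2%, beside 30.0% of all genes), and their signals ran from 187 to 362 with a median of 236. Subunits A and B form the ATP-hydrolysing head. For A, the pooled signal was 328 at Vha68-1, 196 at Vha68-2 and 36.1 at Vha68-3, and the first 2 passed the IDR filter. The order was the same in replicate 3 (242, 146 and 24.9), while replicate 2 gave 81.6 at Vha68-1 and 42.4 at Vha68-2 and had no entry at Vha68-3. Vha55 is the only gene for B and had no IDR summit. It reached 77.3 in the pooled list, 50.4 in replicate 2 (rank 6387) and 42.0 in replicate 3 (rank 16426), and the highest entries of the 2 replicates lay 304 bp apart.

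The stalk subunits of V1 had peaks at 1 gene each for D, E and G. Vha36-1, a gene for the rotor subunit D, had the highest V1 signal (362 pooled, 84.5 in replicate 2 and 281 in replicate 3). Its paralog Vha36-3 stood at 35.6, 11.8 and 21.5 in the same lists, and Vha36-2 had no entry. The Vha36-3 values were near the lowest signals of those lists (29.9, 11.8 and 21.2), with ranks of 29868 in replicate 2 and 29706 in replicate 3. Vha36-1 thus stood above its paralogs in each replicate and in the list pooled from them. Vha26, for the peripheral stalk subunit E, had 261 (62.6 and 201), with a second IDR entry of 170 whose summit was 6 bp from its TSS. Vha13, for the peripheral stalk subunit G, reached 187 in the pooled list, 172 in replicate 3 (rank 3164) and 23.9 in replicate 2 (rank 15036). For the rotor subunit F, Vha14-1 had 35.4 (19.5 and 28.1) and Vha14-2 had no entry.

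Subunits C and H sit where the 2 sectors join and are known for their part in assembly and regulation. Vha44, the gene for C, had 210 in the pooled list, 82.0 in replicate 2 and 124 in replicate 3, with a second IDR entry of 188 on the other side of its TSS. VhaSFD, the gene for H, had 133, 59.3 and 77.5 and was below the IDR set. Of the 5 subunits with a single gene, 3 therefore had an IDR summit (Vha44, Vha26 and Vha13) and both Vha55 and VhaSFD did not.

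Within V0, 6 of 18 genes had an IDR summit (33.3%, beside 30.0% of all genes), with signals of 168 to 788 and a median of 358. Subunit a, which holds the proton channels, is encoded by 5 genes. By the highest entry within 500 bp, 1 of them stood far above the rest. Vha100-2 had a pooled signal of 788 (rank 419 of 30000), 244 in replicate 2 (rank 453) and 549 in replicate 3 (rank 404). It lay above 89.7% of genes with an IDR summit, ties aside. In every list, however, this entry was nearer to the start of the neighbour Vti1b. The highest pooled entry nearest to a TSS of Vha100-2 itself had 151 and was not in the IDR set. Vha100-1 had 141, Vha100-4 89.3 and Vha100-5 71.6, none in the IDR set, and Vha100-3 had no entry. In replicate 2 the second of the group was Vha100-4 (56.6) and in replicate 3 Vha100-1 (101), so the order below Vha100-2 differed between replicates.

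The proteolipid ring is built of subunits c and c''. Vha16-5 had 442 in the pooled list, 121 in replicate 2 and 318 in replicate 3. Vha16-1 had 324, 97.9 and 227, and Vha16-2, Vha16-3 and Vha16-4 had no entry in any list. Both genes with a peak kept their order in each replicate and in the list pooled from them. For c'', VhaPPA1-1 reached 119 (37.9 and 89.6) without passing the IDR filter. Subunit d couples the ring to the stalk, and VhaAC39-1 had 168 (52.8 and 111) against 54.9 (27.9 and 27.2) at VhaAC39-2. Of the small subunit e genes, VhaM9.7-b had 392 (118 and 264), VhaM9.7-a 207 (44.05 and 168) and VhaM9.7-c 129 (44.9 and 86.01), and VhaM9.7-d had none. Ac45, an accessory protein of the pump, is encoded by VhaAC45, which had 134 (40.0 and 99.6) without passing the filter, and its relative VhaAC45RP had no entry.

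At the edge of the IDR set, VhaAC39-1 (168) and Vha13 (187) were the V-ATPase genes just inside, and Vha100-1 (141), VhaAC45 (134) and VhaSFD (133) just outside. For the distance limit, the bound gene whose summit lay farthest from its TSS was Vha100-2 at 304 bp. The nearest IDR summit to Vha14-1 was 701 bp away and was not counted, and for every other gene without a peak it was more than 1000 bp away.

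The V1 and V0 shares differed by few genes, and no test between them was made because genes are not replicates of a condition. The order turned among the upper 50% of IDR entries by signal, where the counts were 2 of 13 for V1 and 4 of 18 for V0. The share over all genes was 17.9% there. With the nearest TSS only, the counts were 5 of 13 and 3 of 18, beside 22.9% of all genes. Counted by subunit, 5 of the 8 V1 subunits (A, C, D, E and G) and 4 of the 5 V0 subunits (a, c, d and e) had at least 1 gene with an IDR summit. A subunit with more genes is more likely to count in this way. The 5 V0 subunits have 18 genes and the 8 V1 subunits 13, so these subunit counts do not compare the sectors. Of these 9 subunits, 6 had exactly 1 such gene, but C, E and G have a single gene each and could not have had more. The 3 with more were A (Vha68-1 and Vha68-2), c (Vha16-1 and Vha16-5) and e (VhaM9.7-a and VhaM9.7-b). No gene for B, F, H or c'' had one.

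Paralogs numbered -1 had an IDR summit in 4 of 7 cases (57.1%) and those numbered -2 or higher in 3 of 15 (20.0%), beside 30.0% of all genes. All 7 of the -1 genes had a pooled entry, against 8 of the 15 higher-numbered ones (53.3%), beside 61.6% of all genes. The 4 bound -1 genes were Vha68-1, Vha36-1, Vha16-1 and VhaAC39-1, and the 3 others were Vha68-2, Vha100-2 and Vha16-5. In 2 of the 7 numbered families the highest signal was not at the -1 gene, namely a (Vha100-2) and c (Vha16-5). With a window of 250 bp, or with each summit given only to its nearest TSS, the higher-numbered count fell to 1 of 15. The shares over all genes were 25.4% and 22.9% in these settings. The numbers are names and no measure of expression, and the difference was not tested.

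Protein likeness among the numbered paralogs, from global alignments of the translated coding sequences, is set beside the signals as a description. Vha68-1 and Vha68-2 share 91.9% of 614 aligned residues and both had a peak. Vha36-1 and Vha36-3 share 85.0% and had pooled signals of 362 and 35.6. Vha16-3 is the closest relative of Vha16-1 (84.1%) and had no entry, whereas Vha16-5 shares 69.2% with Vha16-1 and had the higher signal of the pair. Vha100-2 is closest to Vha100-5 (68.0%) and Vha100-4 (66.1%), both without an IDR summit. The genes in tandem also differed. Vha100-4 starts just downstream of Vha100-2, and Vha68-3 just downstream of Vha68-2, and neither had an IDR summit of its own.

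Of the 12 bound V-ATPase genes, 8 lie head to head with another gene. Most bound genes of any kind also had a neighbour: 2418 of 4178 had another gene's TSS, on either strand, 500 bp or less from theirs. Another gene's TSS lay 500 bp or less from a TSS of 13 of the 33 genes, in each case on the opposite strand. Of these 13 genes 8 had an IDR summit (61.5%), where the share over all genes with such a neighbour was 56.1%. Of the other 20 genes 4 had one (20.0%), where the share over all genes without such a neighbour was 18.3%. Split this way, the V-ATPase shares lay near the background in both classes. The median signal was 345 with a neighbour (342 over all such bound genes) and 191 without (269 over all such bound genes). Neighbours were found at 4 of the 7 -1 paralogs and at 3 of the 15 higher-numbered ones, and their part in the difference between those counts was not tested.

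**Figure D2:**
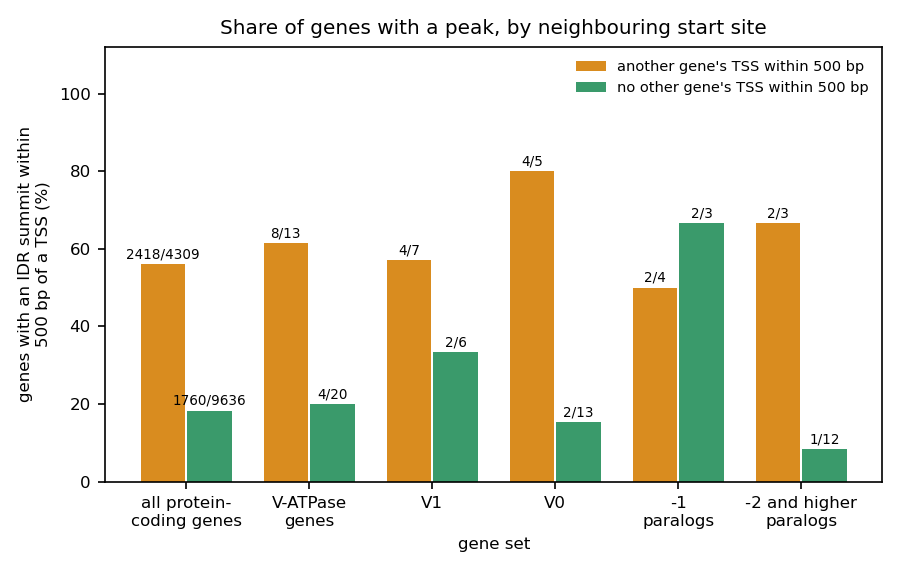
Share of genes with an IDR summit 500 bp or less from a TSS (y axis, percent) in each gene set (x axis), split by whether another protein-coding gene's TSS lies within 500 bp; the labels give the counts, and no error is drawn. V-ATPase genes stood at 8 of 13 and 4 of 20, beside 56.1% and 18.3% of all genes.

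For 6 of the 12 bound genes the strongest summit was nearer to the neighbour's start than to the V-ATPase gene's own. The own TSS was thus the nearest for 6 of 12 (50%), beside 71.5% of all 4178 bound genes. The Vha16-5 summit was 15 bp from the TSS of CG12299 and 287 bp from that of Vha16-5. At Vha36-1 the distances were 18 bp to CG8187 and 54 bp to its own TSS. The Vha100-2 summit lay in an intron of Vha100-2 and the 5′ UTR of Vti1b, which encodes a SNARE of vesicle fusion, 237 bp from the Vti1b TSS and 304 bp from its own. The others were Vha26 beside noi, a splicing factor gene (98 and 206 bp), VhaM9.7-a beside CG11586 (78 and 157 bp) and VhaM9.7-b beside COX8, a gene for a cytochrome c oxidase subunit (140 and 275 bp). At Vha26 and VhaM9.7-b a second, weaker IDR entry was nearest to the V-ATPase gene itself (170, and 288 at 69 bp). The Vha68-1 summit lay between that gene and mTor, the kinase at the core of lysosomal nutrient sensing, 178 bp from the one and 195 bp from the other. Which gene such a peak belongs to cannot be read from position.

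The peaks clear of any neighbour were those of Vha68-2, Vha13, Vha16-1 and VhaAC39-1. Their summits were 127 bp upstream of the TSS at Vha68-2, and downstream of it by 114 bp in a coding exon of Vha13, by 85 bp in the 5′ UTR of Vha16-1 and by 115 bp in the 5′ UTR of VhaAC39-1. A downstream summit was thus found at 3 of these 4, where 29.0% of all bound genes without a neighbour had one. At Vha16-1 this rests on the nearer of its 2 TSSs, since the summit lies upstream of the other. With canonical TSSs alone Vha16-1 had no IDR summit within the window. Over all 12 genes the median position was 142 bp upstream, and 8 of 12 were upstream, beside a median of 115 bp upstream and 79.5% upstream over all 4178 bound genes.

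**Figure D3:**
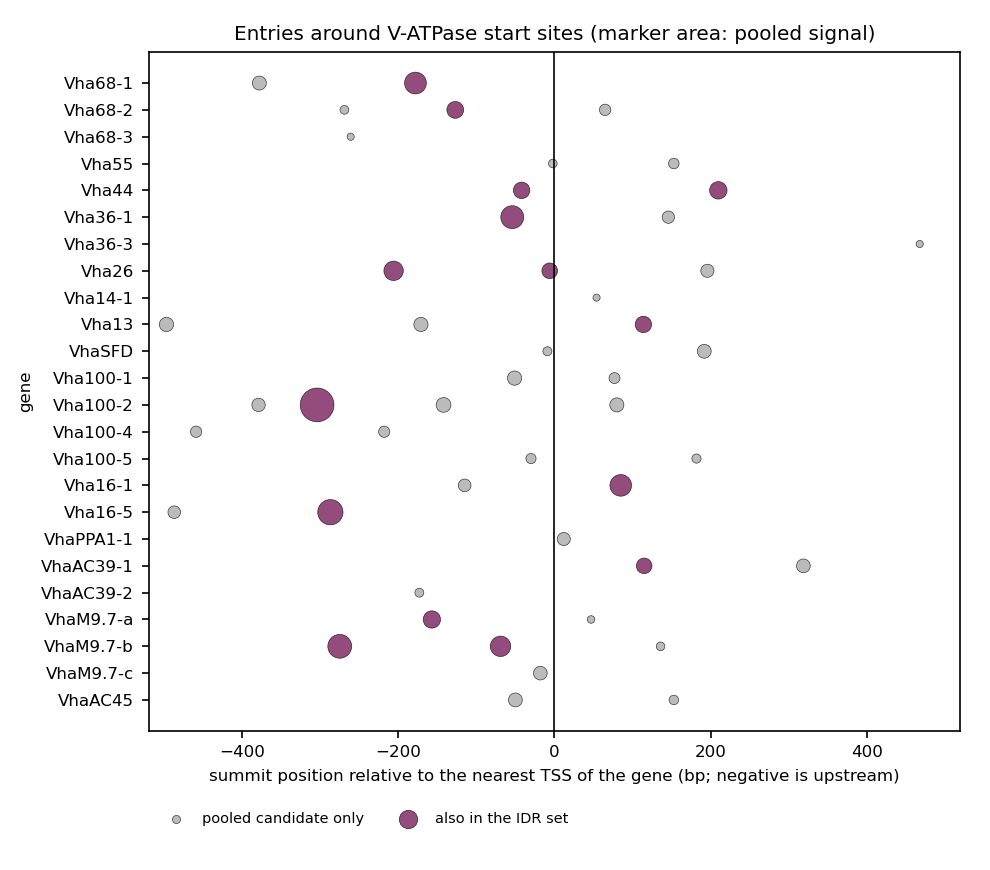
Position of every pooled entry (x axis, bp from the nearest TSS of the gene, negative upstream) at the 24 V-ATPase genes (y axis) that have one, with marker area proportional to pooled signal. Entries also in the IDR set are dark, and the largest, at Vha100-2, lies 304 bp upstream.

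The entries of the IDR set at these genes have dm6 coordinates chr2L:13004103-13004419 for Vha68-1, chr2L:12974041-12974318 for Vha68-2, chr2R:16336159-16336694 for Vha44, chr2R:15541248-15541566 for Vha36-1, chr3R:5591430-5591645 for Vha26 and chr3R:19644193-19644428 for Vha13. Those of V0 are chr3R:18396970-18397595 for Vha100-2, chr2R:6632671-6633302 for Vha16-1, chr2L:10737176-10737507 for Vha16-5, chrX:3880595-3881130 for VhaAC39-1, chr3L:4262280-4262815 for VhaM9.7-a and chr3L:21539369-21539688 for VhaM9.7-b.

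The 2 replicates placed most of the bound genes, but not all, among their highest entries. Of the 12 genes, 11 had an entry among the 5777 highest of replicate 3, 8 among the 5777 highest of replicate 2, and 8 in both. The 4 outside in replicate 2 were Vha13 (rank 15036), Vha68-2 (7983), VhaM9.7-a (7629) and VhaAC39-1 (6019), and VhaAC39-1 was also outside in replicate 3 (5928). The first 3 of these ranked far higher in replicate 3 (3164, 4073 and 3260), whereas VhaAC39-1 was near the limit in both. Replicate 3 over replicate 2 had a median log2 ratio of 1.48 over the 12 genes (SD 0.56), and of 1.19 (SD 0.40) over 4159 bound genes with an entry in both. The Vha13 log2 ratio of 2.84 stood farthest out, and 7 of those 4159 genes (0.168%) had one as high. The lowest was at Vha44 (0.60). Among genes outside the IDR set, VhaSFD (rank 5127) and Vha100-4 (5486) were in the top 5777 of replicate 2, and none was in that of replicate 3.

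**Figure D4:**
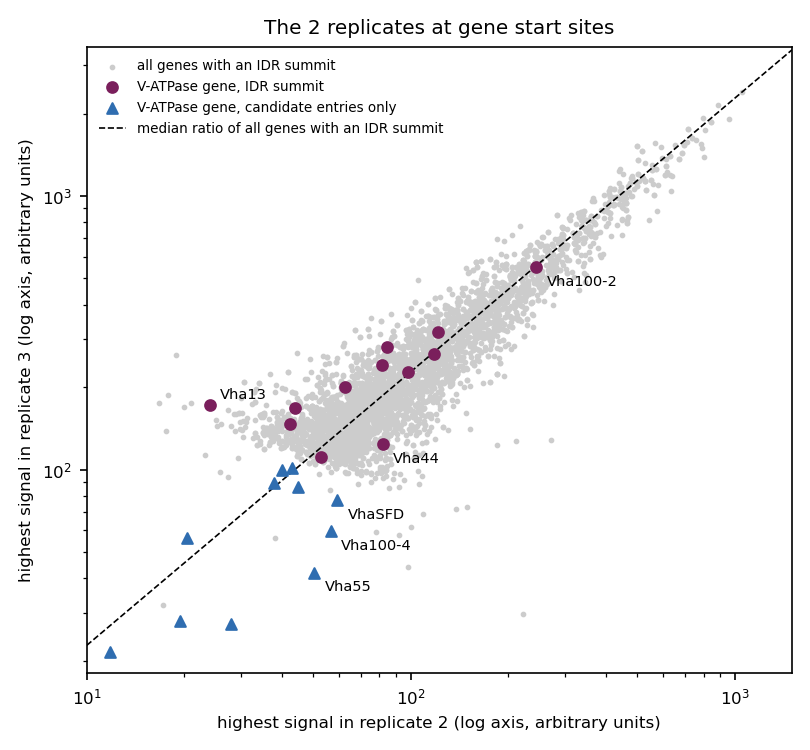
Highest signal near a TSS in replicate 2 (x axis) and replicate 3 (y axis), both on log scales in arbitrary units, for all genes with an IDR summit (grey) and for V-ATPase genes with an entry in both. The dashed line is the median ratio of all bound genes; Vha13 stands above it at 23.9 and 172, and Vha55 (50.4 and 42.0) and Vha100-4 (56.6 and 59.7) stand below it.

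Promoter sequence was searched for 10 motifs on both strands, from 250 bp before to 50 bp after each annotated TSS, and a gene counted when any of its windows held the motif. TCACGTGA, a palindrome around the E-box core CACGTG, is of interest because the basic helix-loop-helix factor Mitf is known in Drosophila to act on V-ATPase genes through such E-boxes. It was found at Vha68-2 and Vha44, 2 of 33 genes, and at 28 of all 13945 genes (0.201%). CACGTG, which TCACGTGA contains, was found at 5 of 33 genes (15.2%; 5.30% of all genes), namely Vha68-2, Vha44, Vha55, VhaM9.7-d and VhaAC45RP. The TCACGTGA match at Vha68-2 was 1112 bp from the nearest IDR summit, before a downstream TSS. At Vha44 it was 254 bp from the strongest summit but 2 bp from the summit of the second IDR entry (188). Another copy lay in the 101 bp around the summit of Vha16-1. Over all 5777 IDR summits, 4 windows of this length held TCACGTGA, and 2 of these 4 were at V-ATPase genes, Vha44 and Vha16-1. The 101 bp around the E-box of Vha68-2, a gene of the catalytic head, are shown with matches to the 10 motifs in capitals. The peak of Vha68-2 lies at another of its TSSs, and Vha44 and Vha16-1 also have both the E-box and a peak.

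Vha68-2 (chr2L:12975256-12975356, plus strand): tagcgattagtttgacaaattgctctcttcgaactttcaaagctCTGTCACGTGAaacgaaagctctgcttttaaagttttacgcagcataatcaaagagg

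At Vha68-2 the E-box overlaps CTGTCA, the reverse complement of TGACAG. The CACGTG of Vha55, a gene with no IDR summit, was 222 bp from its highest pooled summit. Weaker candidate entries at Vha55 had summits nearer to this motif, in the pooled list (51.6) and in replicate 2 (27.7). The replicate 3 entry (42.0) also lay nearer to this motif than the highest pooled summit did.

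CGATA, part of the site of the insulator protein BEAF-32, was found at 11 of the 12 bound V-ATPase genes and at 8 of the other 21, beside 67.3% of all bound genes and 53.0% of all genes. VhaAC39-1 was the exception in the promoter window and held CGATA under its summit instead. A promoter match need not lie with the peak: the only one of Vha100-2 was 2086 bp from its IDR summit, before another TSS. In the 101 bp around the strongest summit, CGATA was found at 5 of the 12 genes, beside 18.6% of all 5777 IDR summits. TATCGATA, the site of DREF, which contains CGATA, was found at 2 of 33 genes, Vha55 and VhaSFD, neither bound. It was found at 10.2% of all genes and 16.8% of all bound genes. GGTCACACT, the M1BP site, was at 4 of 33 genes (12.1%), 3 of them bound, beside 6.78% of all genes and 11.3% of all bound genes. The homeodomain core TAATTA was at 24.2% of V-ATPase genes and 24.3% of all genes, and TAACA at 57.6% and 59.7%. The remaining motifs were TATAAA (54.5% and 51.2%), TGACAG (8 of 33 genes and 2092 of 13945) and ACATGT (12.1% and 9.20%). The G and C content of the 12 windows at the strongest summits had a median of 45.5% (range 21.8 to 54.5%), against 36.6% over all 5777 summit windows. The sets are unlike, since the 5777 also hold weaker summits of the same starts and summits far from any start.

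Related genes were counted in 4 lists by the same rule: a separate but related enzyme, regulators of the pump, and genes of the lysosome and its nutrient sensing. The F-type ATP synthase, the mitochondrial relative of the V-ATPase, had an IDR summit at 9 of 13 genes (69.2%, beside 30.0% of all genes), led by blw (620), ATPsynD (434), ATPsynbeta (429) and ATPsynE (414). The 4 without were ATPsynG, ATPsynCF6, ATPsyndelta and ATPsynF. Of 6 genes for V-ATPase assembly and regulation 4 had one (66.7%, beside the same 30.0%), namely CG7071 (732), mtd (575), Rbcn-3A (329) and CG5969 (234). Rbcn-3B, which with Rbcn-3A forms a complex that assembles the pump, and Mitf had none (pooled signals 89.9 and 158). Of 9 genes for lysosomal nutrient sensing 4 had one (44.4%, beside 30.0%), namely Lamtor3 (1026), RagA-B (474), Lamtor5 (287) and Lamtor4 (166). The 5 without were raptor, RagC-D, Lamtor1, Lamtor2 and Lst8. The list named the kinase as Tor and so missed mTor, which has the Vha68-1 entry (328) at its start, and with it the count is 5 of 10. Of 16 lysosome genes 8 had one (50%, beside 30.0%), led by the protease gene CtsB (830), Cln7 (575), CtsL1 (382) and spin (321). Over all genes the share was 56.1% with another gene's TSS within 500 bp and 18.3% without. Split in the same way, nutrient sensing without mTor had 3 of 5 and 1 of 4. Assembly and regulation had 3 of 4 and 1 of 2, the F-type ATP synthase 4 of 7 and 5 of 6, and the lysosome list 3 of 7 and 5 of 9. No test between these lists and the V-ATPase genes was made.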

How the data were processed

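Per the notes deposited with the files, the authors' lists are narrowPeak entries on dm6 and dm3 made from the replicates' alignments and a control alignment; the control was not analysed here. The aligner and peak caller were not given in the sources used here. Each signal value was taken, per the deposited lists, from column 7 of 4 dm6 lists and left unscaled; the dm3 lists were not used. Genes and TSSs came from the protein-coding transcripts of Ensembl release 115 (BDGP 6.54), 13945 genes with 19607 distinct TSSs, and sequence from the Release 6 genome, whose arms match dm6. Python 3.11.15, pandas 2.3.3 and biopython 1.88 were used; proteins were translated from the longest coding sequence and aligned globally (BLOSUM62, gap opening -11 and extension -1), with identity over aligned residues. The planned RefSeq promoter table was not used here, so promoter windows were cut from the genome at Ensembl TSSs; summit windows holding annotated UTR are not printed, and Ensembl canonical transcripts served as the alternative TSS set. The assignment of summits to genes was checked on simulated entries.

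With 2 replicates of 1 group, no test between samples was possible, and genes are not replicates, so counts are given beside those of all genes without p-values. All V-ATPase genes are named; other lists name up to 4 members of highest signal and the members without a peak when fewer than 6. The members and lists were chosen with earlier results of these data known. The listed symbols Tor (mTor in the annotation) and VhaM8.9 had no match and were left out. Alternatives changed the window, the peak set and the assignment of summits.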

Additional observations from a re-analysis of the deposited data

How the results depend on the processing

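The count of 12 V-ATPase genes stayed between 6 and 13 under the 7 alternatives. With a window of 250 bp it was 10 (25.4% of all genes) and with 1000 bp 13 (32.8% of all genes), the latter adding Vha14-1, and the higher-numbered paralogs fell from 3 to 1 with 250 bp (Vha100-2 and Vha16-5 were lost). Among the upper 50% of IDR entries by signal, 6 genes had a peak, 2 of V1 and 4 of V0, beside 17.9% of all genes. When a summit counted only for the gene of its nearest TSS, 8 had a peak (22.9% of all genes), 5 of V1 and 3 of V0, with 1 higher-numbered paralog; Vha100-2, Vha16-5, Vha36-1 and VhaM9.7-a were lost, by construction, to their neighbours. Leaving out a replicate, by taking the other's 5777 highest entries, gave 10 to 11 genes, 5 to 6 of V1, 5 of V0, 3 first paralogs and 3 higher ones each time. Without replicate 3 (28.1% of all genes), Vha13, Vha68-2, VhaAC39-1 and VhaM9.7-a were lost and Vha100-4 and VhaSFD gained. Without replicate 2 (30.3% of all genes), VhaAC39-1 was lost. With canonical TSSs alone there were 10 (27.0% of all genes), without Vha16-1 and Vha44. The depth behind the signals is unknown, and counts this small limit every comparison among V-ATPase genes.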

Other observations

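Some V-ATPase genes carried IDR entries farther from their start sites than 500 bp. In introns of Vha100-2, entries with pooled signals of 424 and 206 had summits 3339 and 3118 bp downstream of the nearest TSS of that gene, so its locus held 3 IDR summits in all. Introns of Vha16-1 held entries of 198 and 267, at 1690 and 3994 bp, the second nearest to the start of CG33919. Vha14-1, with 35.4 at its own start, lay beside a much stronger pair of entries (666 and 170, at 935 and 701 bp past its TSS and beyond its end) that were nearest to the start of Gmppa.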
